A study of Drosophila melanogaster with 9 samples.

Results

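The transcripts of the translation elongation and release factors were followed in RNA immunoprecipitated with Larp from *Drosophila melanogaster* ovaries. The set was fixed by gene symbol and lists 9 genes, of which 7 elongation factors and 2 release factors. Of these, 7 were found among the 17024 features of the count lists: eEF1alpha2, eEF1beta, eEF1delta, eEF1gamma, eEF2, eRF1 and eRF3. The other 2, eEF1alpha1 and eEF5, had no entry under their current FlyBase identifiers and were not analysed here.

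All flies carried Larp fused to GFP and FLAG (larp::GFP::FLAG), and ovaries were dissected 1 to 3 days after eclosion. RNA was measured in 3 fractions with 3 libraries each. The input was 10% of the lysate, the IgG control was RNA recovered on mouse IgG, and the anti-FLAG IP was RNA recovered with the antibody against the tag. Because every fraction comes from tagged flies, the IgG control measures non-specific recovery by the antibody and beads, and RNA from untagged flies was not analysed here. The labels do not say whether the replicates were separate dissections, so p-values measure the spread between these libraries, which may be partly technical.

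Elongation factors carry the ribosome through each codon. eEF1alpha delivers aminoacyl-tRNA in its GTP form, the eEF1B complex of beta, delta and gamma subunits restores that GTP form, and eEF2 drives the translocation step. At a stop codon eRF1 recognises the codon and eRF3, a GTPase, assists peptide release. In mammals, the ortholog LARP1 binds mRNAs that begin with a terminal oligopyrimidine tract, a class that holds mRNAs for ribosomal proteins and elongation factors.

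The libraries held 11316201 to 17571309 counts. The tissue label was checked with markers. All 8 germline markers with an entry and all 9 markers of ovarian somatic cells had counts in every fraction, while neuronal markers summed to at most 7.95 CPM (counts scaled to the library total) and testis markers to at most 2.46. Muscle markers were present at 220 to 431 CPM in input, 354 to 959 in the IgG control and 98.5 to 383 in the anti-FLAG IP. Fat body markers were present at 17.7 to 47.8 CPM in input, 55.8 to 789 in the IgG control and 18.9 to 117 in the anti-FLAG IP. The ribosomal protein genes took 29.5% to 49.5% of the counts in the anti-FLAG IP and 7.21% to 10.6% in the other fractions. The log2 fold changes of the anti-FLAG IP given below depend on whether libraries are scaled by TMM or by total counts. Normalised read counts are CPM after TMM scaling, which sets the bulk of genes to no change. When libraries were scaled only by their totals, the median over all genes of the log2 fold change moved from 0.014 to -0.88 against input and from 0.0014 to -0.84 against IgG control.

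To place the members in the ovary, their levels in input were compared per kilobase of exon (RPKM, scaled by total counts). In whole ovaries, fewer cells of a type and less RNA per cell cannot be told apart. Among the 7 members found, eEF2 was highest, at 1901 ± 260 (SD, n = 3), which ranked 26 among 9089 genes with counts. eEF1gamma followed at 1269 ± 44.2, eEF1beta at 972 ± 40.5 and eEF1delta at 507 ± 46.9. The ranges of these neighbours did not overlap in input. The release factors were much lower, at 138 ± 13.4 for eRF3 and 125 ± 16.1 for eRF1, and their ranges overlapped. eEF1alpha2 was almost absent, with 0, 0 and 13 counts in the input libraries. In IgG control the order of eEF2 and eEF1gamma was not resolved, at 1296 ± 207 and 1282 ± 11.1. In anti-FLAG IP, eEF1gamma (2130 ± 494) and eEF2 (1796 ± 573) again overlapped, and eRF1 (96.5 ± 55.2) overlapped eRF3 (64.5 ± 22.3).

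**Figure D1:**
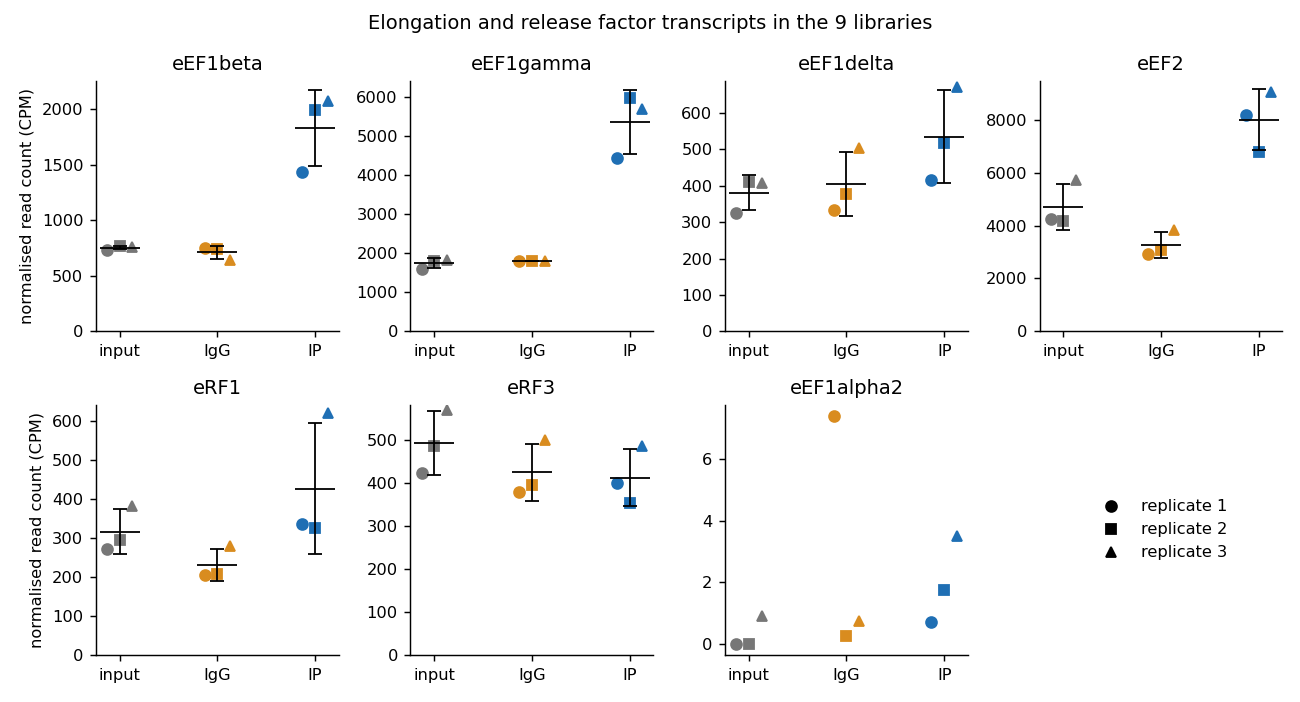
Normalised read counts (CPM after TMM scaling) of the 7 transcripts, with 1 panel per gene and its own vertical axis. Points are libraries, and horizontal lines with bars are the mean and SD of 3 libraries, left out for eEF1alpha2. For eEF1beta, eEF1gamma and eEF2 every anti-FLAG IP library lies above every input and IgG control library. For eRF3 the fractions overlap.

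The anti-FLAG IP was then compared with each control fraction to ask which of these transcripts were recovered with Larp beyond their abundance and beyond the background of the procedure. eEF1beta and eEF1gamma, subunits of the eEF1B complex, were higher against both. eEF2 was higher in every library, but the difference did not pass the edgeR test in either comparison. eEF1delta, eRF1 and eRF3 were not called. Thus 2 of the 7 members were called higher and 0 lower against input, where 1.83% of 7575 genes tested were called higher and 0.251% lower. The same 2 members were called higher against IgG control, where 1.62% of 7408 genes tested were called higher and 0.0135% lower. In either direction 2.09% and 1.63% of genes were called. A gene was called where its edgeR adjusted p-value was below 0.05 and it differed by 2-fold or more. The 2 comparisons share the anti-FLAG IP libraries and are not independent of each other.

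eEF1gamma (FBgn0029176, chromosome 3R, 29220172 to 29222109, plus strand in BDGP6.54) encodes the structural subunit of eEF1B. Its normalised read counts in replicates 1 to 3 were 1592, 1788 and 1833 in input, 1792, 1793 and 1800 in the IgG control and 4441, 5975 and 5695 in the anti-FLAG IP. Every anti-FLAG IP library was thus more than double any control library, and both controls lay close together. The log2 fold change was 1.64 ± 0.30 (SE) against input (edgeR adjusted p = 0.00472), a 3.13-fold difference, and 1.58 ± 0.29 against IgG control (edgeR adjusted p = 0.00435). Within same-numbered libraries the log2 ratio to input was 1.48, 1.74 and 1.64. There were 221 genes with a larger log2 fold change in each comparison.

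eEF1beta (FBgn0028737, chromosome 2R, 16868222 to 16869280, plus strand) encodes a guanine nucleotide exchange subunit. It had 735, 766 and 757 normalised read counts in input, 746, 742 and 643 in the IgG control and 1433, 1988 and 2068 in the anti-FLAG IP. Here too the anti-FLAG IP libraries stood clear of both controls, with replicate 1 the lowest of the 3. The log2 fold change was 1.30 ± 0.24 against input (edgeR adjusted p = 0.0062), a 2.46-fold difference, and 1.37 ± 0.25 against IgG control (edgeR adjusted p = 0.00429). Same-numbered log2 ratios to input were 0.96, 1.38 and 1.45.

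Calls of both genes were lost in several fits that left out a single control library. In both comparisons, both genes remained called when any single anti-FLAG IP library was left out. All these fits have fewer libraries. Without input replicate 1 or 2, neither was called against input, with edgeR adjusted p-values of 0.0688 and 0.0768 for eEF1beta and 0.0677 and 0.0713 for eEF1gamma. Without input replicate 3, eEF1beta was not called (edgeR adjusted p = 0.0529). Against IgG control, eEF1gamma was not called without IgG control replicate 1, 2 or 3 (edgeR adjusted p = 0.0567, 0.0756 and 0.0675), nor eEF1beta without replicate 3 (edgeR adjusted p = 0.0668). When any single library of input or anti-FLAG IP was left out, the log2 fold change against input stayed between 1.19 and 1.43 for eEF1beta. For eEF1gamma it stayed between 1.54 and 1.75. Total-count scaling had a larger effect and gave 0.41 for eEF1beta and 0.75 for eEF1gamma against input, and 0.52 and 0.73 against IgG control, so that neither reached a 2-fold difference.

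eEF1delta (FBgn0032198, chromosome 2L, 10232507 to 10234450, plus strand), the other exchange subunit, behaved differently in its values. It had 326, 411 and 406 normalised read counts in input, 334, 377 and 505 in the IgG control and 417, 518 and 670 in the anti-FLAG IP. The anti-FLAG IP range lay just above that of input and overlapped that of IgG control. The log2 fold change was 0.51 ± 0.21 against input (edgeR adjusted p = 0.277) and 0.40 ± 0.23 against IgG control (edgeR adjusted p = 0.805). Its sign turned under total-count scaling, to -0.36 and -0.42.

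To compare the subunits without any scaling, raw counts of these genes were divided by each other within each library. Such a ratio depends on gene length but not on library composition, and was compared between fractions only. The ratio of eEF1gamma to eEF1delta counts was 4.88, 4.35 and 4.51 in input, 5.36, 4.76 and 3.57 in the IgG control and 10.6, 11.5 and 8.49 in the anti-FLAG IP. It was thus higher in every anti-FLAG IP library than in any control library. The ratio of eEF1beta to eEF1delta was 1.99 ± 0.23 in input, 1.83 ± 0.49 in the IgG control and 3.45 ± 0.38 in the anti-FLAG IP (SD, n = 3 each), again without overlap. The ratio of eEF1gamma to eEF1beta moved less, from 2.31 ± 0.13 in input and 2.54 ± 0.22 in IgG control to 2.95 ± 0.18 in the anti-FLAG IP, and anti-FLAG IP overlapped IgG control. No exact two-sided permutation test of 3 libraries against 3 can go below p = 0.1, so these ratios are given as values.

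**Figure D2:**
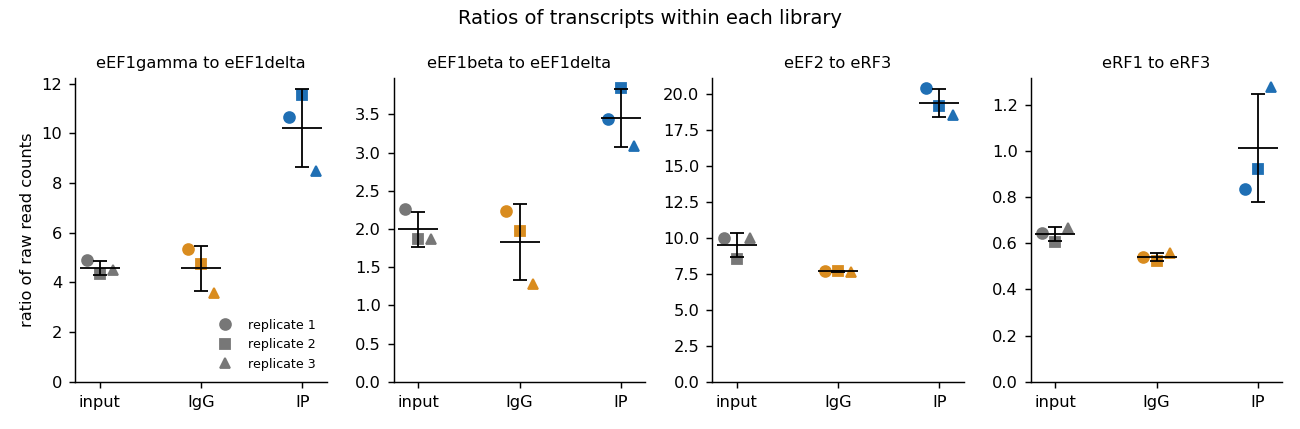
Ratios of raw read counts between members within each library, by fraction. Points are libraries, and lines with bars are the mean and SD of 3. In all 4 panels the anti-FLAG IP libraries lie above the input and IgG control libraries.

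eEF2 (FBgn0000559, chromosome 2L, 21677913 to 21682164, minus strand), the translocase, was the most abundant in input of the 7 members found. It had 4258, 4160 and 5712 normalised read counts in input, 2910, 3055 and 3843 in the IgG control and 8200, 6769 and 9037 in the anti-FLAG IP. The 3 fractions did not overlap, with IgG control lowest and anti-FLAG IP highest. Against input the log2 fold change was 0.78 ± 0.33 (edgeR adjusted p = 0.292), and it was -0.08 under total-count scaling. With DESeq2 the difference from input passed the p-value threshold (adjusted p = 0.00302) but was under 2-fold. Against IgG control the log2 fold change was 1.30 ± 0.31, above 2-fold, and just missed the threshold (edgeR adjusted p = 0.0523). It was called there with DESeq2 (adjusted p = 4.86e-05), in edgeR without a filter on low counts (adjusted p = 0.0112) and in an edgeR fit of all 9 libraries (adjusted p = 0.0133). It was also called without anti-FLAG IP replicate 2 (edgeR adjusted p = 0.0263) or 3 (edgeR adjusted p = 0.00276). It was not called without anti-FLAG IP replicate 1 (edgeR adjusted p = 0.223), nor without IgG control replicate 1, 2 or 3 (edgeR adjusted p = 0.412, 0.425 and 0.188). Total-count scaling lowered it to 0.47. A small non-coding RNA gene lies within the eEF2 locus on the same strand, outside its exons.

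The release factors form a pair of proteins that work together, and their transcripts were read side by side. eRF1 (FBgn0036974, chromosome 3L, 20348355 to 20353873, plus strand) had 273, 295 and 382 normalised read counts in input, 205, 208 and 279 in the IgG control and 335, 325 and 621 in the anti-FLAG IP. Replicate 3 was highest in each fraction, and the anti-FLAG IP range overlapped input but not IgG control. The log2 fold change was 0.45 ± 0.25 against input (edgeR adjusted p = 0.46) and 0.89 ± 0.26 against IgG control (edgeR adjusted p = 0.181). Blocking on the replicate number, the second passed the p-value threshold, at 0.84 (edgeR adjusted p = 0.0224), but remained under 2-fold. The same held with DESeq2 (adjusted p = 0.0124) and in edgeR without a filter on low counts (adjusted p = 0.0108). Without anti-FLAG IP replicate 3 the value against input dropped to 0.06 and that against IgG control to 0.53. Total-count scaling turned the value against input to -0.38.

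eRF3 (FBgn0020443, chromosome 2L, 12434452 to 12441279, plus strand) was the lowest of the 6 abundant members in enrichment. It had 424, 488 and 572 normalised read counts in input, 379, 397 and 501 in the IgG control and 401, 353 and 487 in the anti-FLAG IP, and the 3 fractions overlapped. The log2 fold change was -0.24 ± 0.20 against input (edgeR adjusted p = 0.649) and -0.04 ± 0.21 against IgG control (edgeR adjusted p = 0.997). When scaled by totals it was called lower against input, at -1.10 (edgeR adjusted p = 0.00571), beside a median of all genes of -0.88. That scaling called 2212 of the 7575 genes tested lower against input.

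Within libraries the ratio of eRF1 to eRF3 counts was 0.643, 0.606 and 0.667 in input, 0.541, 0.525 and 0.557 in the IgG control and 0.836, 0.92 and 1.28 in the anti-FLAG IP. The ranges of all 3 fractions were separate, and the spread in the anti-FLAG IP came mostly from replicate 3. The ratio of eEF2 to eRF3 was 9.52 ± 0.86 in input, 7.68 ± 0.016 in the IgG control and 19.4 ± 0.97 in the anti-FLAG IP (SD, n = 3 each). Counts of the release factors have a limit in the annotation. An exon of eRF1 overlaps an exon of CG5618 on the same strand, an exon of eRF3 overlaps one of SC35 on the opposite strand, and whether reads were counted by strand is not stated.

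**Figure D3:**
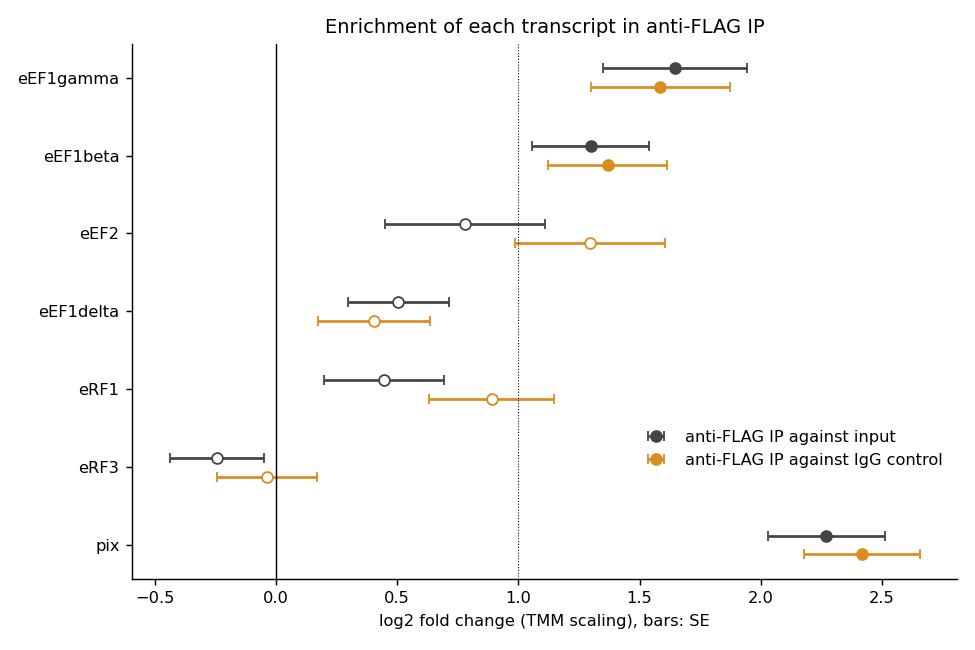
Log2 fold change between anti-FLAG IP and each control fraction (TMM scaling) for 6 members and for pix. Bars are SE, filled points passed the threshold of adjusted p-value and 2-fold (dotted line), and open points did not. eEF1gamma and eEF1beta are filled in both comparisons, while eRF3 lies near 0 in both.

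eEF1alpha2 (FBgn0000557, chromosome 3R, 31738468 to 31743306, plus strand), an isoform of eEF1alpha encoded by its own gene, was at the limit of detection. It had 0, 0 and 13 counts in input, 126, 5 and 10 in the IgG control and 6, 11 and 39 in the anti-FLAG IP. The highest value was in IgG control replicate 1, which is also the IgG control library with the most counts of muscle markers (959 CPM) and of fat body markers (789 CPM). Whether these have a part in its counts was not tested. No comparison was called (edgeR adjusted p = 0.592 against input and 0.995 against IgG control), and the fitted log2 fold changes, 2.73 ± 1.93 and -0.48 ± 2.02, were too imprecise to give a direction. The one against IgG control had the other sign, at 2.05, without IgG control replicate 1. eEF1alpha2 is a close paralog of eEF1alpha1, and reads that match both could have been assigned to either.

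The background itself was measured by IgG control against input. Of the 7 members, 0 were called in either direction in edgeR and 0 in DESeq2, and 2 had an unadjusted edgeR p-value under 0.05. In edgeR 0.0% of the 7594 genes tested were called. Among the abundant members eEF2 had the largest difference, -0.52 ± 0.18 on the log2 scale (edgeR adjusted p = 0.761), and was lower in 3 of 3 same-numbered pairs. With the replicate block it passed the p-value threshold (edgeR adjusted p = 0.0367), under 2-fold. eRF1 was at -0.45 ± 0.18 (edgeR adjusted p = 0.788) and eRF3 at -0.21 ± 0.17 (edgeR adjusted p = 0.925). Both were also lower in every same-numbered pair. eEF1beta and eEF1gamma were at -0.08 ± 0.13 and 0.05 ± 0.14. The larger log2 fold changes of eEF2 and eRF1 against IgG control than against input thus stand beside lower values of both in IgG control.

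The summed share of the members in all counts needs no scaling factor, but it depends on the composition of each library. The 7 transcripts took 0.992%, 0.984% and 1.13% of all counts in input, 0.768%, 0.794% and 0.923% in the IgG control and 1.02%, 0.878% and 1.49% in the anti-FLAG IP. The Wilson 95% interval ran from 1.48% to 1.49% in anti-FLAG IP replicate 3 and from 0.764% to 0.773% in IgG control replicate 1, and these intervals cover counting error only. The anti-FLAG IP and input ranges overlapped. When ribosomal protein genes were left out of the totals, the share was 1.14% ± 0.11 in input, 0.903% ± 0.096 in the IgG control and 1.87% ± 0.21 in the anti-FLAG IP (SD, n = 3 each), and anti-FLAG IP no longer overlapped either control. Those genes held on average 40.4% of anti-FLAG IP counts, 9.18% of input and 8.25% of IgG control, so leaving them out raises the anti-FLAG IP share most. The sum is mostly eEF2 and eEF1gamma, with 70204 and 38019 of 130364 member counts in anti-FLAG IP replicate 1.

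**Figure D4:**
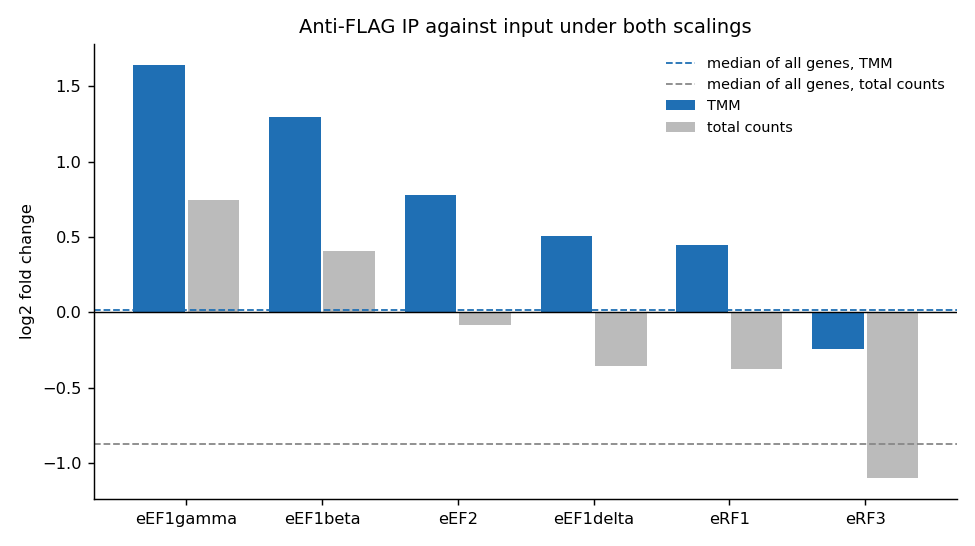
Log2 fold change between anti-FLAG IP and input for 6 members under TMM scaling and under total counts alone, as bars from 0. Dashed lines are the medians of all genes tested, 0.014 and -0.88. Under total counts eEF2, eEF1delta and eRF1 turn below 0, and eRF3 alone lies below the median of all genes.

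Other genes of translation were then read out for comparison, from lists chosen by symbol. Of 5 listed cytoplasmic genes that act on stalled or terminated ribosomes or in selenocysteine decoding, 4 were tested. Of these, 1 was called higher in both comparisons. This was pix (FBgn0086706, chromosome 3L, 8972056 to 8974765, minus strand), the ortholog of ABCE1, which splits the ribosomal subunits after termination. It had 282, 256 and 362 normalised read counts in input, 233, 298 and 275 in the IgG control and 1536, 1601 and 1151 in the anti-FLAG IP, without overlap. The log2 fold change was 2.27 ± 0.24 against input (edgeR adjusted p = 0.00015) and 2.42 ± 0.24 against IgG control (edgeR adjusted p = 7.76e-05). It was above every member other than eEF1alpha2, whose value is imprecise, and remained called under total-count scaling, at 1.35 and 1.54. The other 3 were not called: pelo and HBS1, which rescue stalled ribosomes, and eEFSec, the selenocysteine elongation factor. Their log2 fold changes were 0.10, 0.35 and 0.14 against input. Against IgG control HBS1 was at 0.90 ± 0.35, with ranges that did not overlap and an unadjusted edgeR p-value of 0.0223 (adjusted p = 0.524).

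Of 12 listed genes that modify elongation or release factors, 8 had an entry and 7 were tested. Of the 7 tested, 0 were called in either comparison, and the others were not measured. The tested genes include nero, which completes hypusine on the eEF5 protein, and Dph1 to Dph5 of the diphthamide pathway that modifies eEF2. Their median log2 fold change was 0.02 against input and -0.06 against IgG control, beside 0.014 and 0.0014 over all genes. Of 11 listed mitochondrial elongation, release and recycling genes, 8 had an entry and 7 were tested. Of the 7 tested, 0 were called, with medians of 0.14 and 0.013. Under total-count scaling 2 genes of the modification list were called lower against input and 1 against IgG control, with medians of -0.89 in both, beside medians of all genes of -0.88 and -0.84. Over all genes, that scaling called 2212 of 7575 lower against input and 1387 of 7408 lower against IgG control. For the mitochondrial list that scaling gave 1 gene called lower against input and 0 against IgG control, with medians of -0.73 and -0.81. With TMM scaling, no gene of these 2 lists had an unadjusted edgeR p-value under 0.05 in either comparison.

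The median of the members lay between those of the ribosomal proteins and of all genes, but single members differed. eRF3, at -0.24 against input and -0.04 against IgG control, lay below the medians of all genes (0.014 and 0.0014). The median over the 7 members was 0.78 against input and 0.89 against IgG control on the log2 scale, and without eEF1alpha2 the medians were 0.64 and 1.09. Ribosomal protein genes had medians of 3.08 and 3.17, with 76 of 79 called higher in each comparison. Translation initiation factor genes had medians of 0.66 and 0.77, with 11 of 36 and 12 of 35 called higher. Under total-count scaling the medians of the 7 members were -0.08 and 0.10, above those of all genes in both comparisons.

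The annotation offers a property that the choice of members did not use. The median annotated 5′ UTR length over transcripts of a gene was 56 bases for eEF1gamma, 66 for eEF1delta, 75 for eEF2 and 90 for eEF1beta. It was 172.5 for eEF1alpha2, 221.5 for eRF1 and 389.5 for eRF3. Over 7229 genes tested against input with an annotated 5′ UTR the median was 155, and over 79 ribosomal protein genes it was 69. Over 36 initiation factor genes it was 147.5, near that of all genes, though 11 of them were called higher against input. The 4 abundant elongation factors were thus shorter than the median gene at this end and the release factors longer. pix had 90.5. eEF1delta, with the second shortest 5′ UTR of the members, was among those not called. Over the members this is a description of 7 genes, and annotated starts may differ from those used in the ovary.

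The transcript of the bait, larp, had a log2 fold change of 1.05 ± 0.56 against input (edgeR adjusted p = 0.486), with overlapping ranges. With the replicate block it was 1.08 and was called (edgeR adjusted p = 0.000388). The difference from IgG control was 0.90 ± 0.61 (edgeR adjusted p = 0.882), and 0.99 with the block (edgeR adjusted p = 0.00453).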

How the data were processed

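mRNA sequencing of 9 libraries was analysed, 3 each of input, IgG control and anti-FLAG IP. Per the labels, RNA was selected for poly(A) and libraries were strand-specific, with 13 min of fragmentation. The authors deposited raw read counts per FlyBase identifier, and the submitters' processing notes name HISAT2 2.1.0, featureCounts 1.4.6 and dm6. The annotation release, the strand setting and the handling of reads that match several genes are not given in the sources used here. Symbols matched 16647 of the 17024 features. The other 377 held 5.13% to 12.5% of counts and stayed in totals and tests unnamed. Of these, 1 feature with a 6-digit identifier held 0.0065% to 7.89%. Positions, exon lengths and 5′ UTRs came from BDGP6.54, Ensembl release 115.

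Each pair of groups (6 libraries) was fitted over all genes in edgeR 4.0.16 (R 4.3.3) with TMM factors, the filterByExpr filter and a robust quasi-likelihood test. Adjusted p-values are Benjamini-Hochberg values over all genes tested, and the SE was derived from the F statistic. The alternatives were other scalings, DESeq2 1.42.0, no filter, a fit of all 9 libraries, the replicate block and leaving out each library. The floor of 3 counts lay between 0.171 and 0.265 CPM. The scripts were tested on simulated data.

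The replicate numbers in the sample titles were checked over the 6845 genes that averaged 50 counts or more. Deviations from the group means correlated between same-numbered libraries at 0.155 to 0.445. Between libraries of other numbers the mean correlation was -0.138 (input and IgG control), -0.154 (input and anti-FLAG IP) and -0.131 (IgG control and anti-FLAG IP). These negative values are no separate result, because deviations from a group mean cancel out within the group. From the same-numbered correlations alone the numbers were taken to pair libraries, but only the replicate block used this pairing. The main fits, on which the calls rest, did not. Replicates differed by a chi-square of at least 31.9 per degree of freedom, and none was a copy of another. The members and lists were chosen with earlier results of these data known. The rule was to name all members, larp, list genes called in any comparison, and the 5 genes with profiles nearest to eRF1. Outside this rule, pelo, HBS1, eEFSec, nero and Dph1 to Dph5 were named, though not called with TMM scaling. Of these, pelo, HBS1 and eEFSec were given values. The same profile search was planned for eEF1alpha1, which was not analysed.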

Additional observations from a re-analysis of the deposited data

How the results depend on the processing

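Of the log2 fold changes of the members and pix under all alternatives, 348 kept their direction and side of the threshold, 13 lost a call, 8 gained one and 13 changed sign. Under total-count scaling 1 member was called against input (eRF3, lower) and 0 against IgG control, and all genes called went to 2315 against input (103 higher, 2212 lower) and 1485 against IgG control (98 higher, 1387 lower). That scaling turned eEF1delta to -0.36 and -0.42, and eEF2 and eRF1 against input to -0.082 and -0.38. Ribosomal protein genes took up more of the anti-FLAG IP counts, and their part in the change under total-count scaling was not tested. With TMM factors computed without them, a fit added after seeing the data, eEF1beta and eEF1gamma remained the members called against input. That fit called 159 genes in all. Leaving out single libraries gave 0 to 2 members called against input and 0 to 3 against IgG control, 126 to 358 and 114 to 184 genes in all, and 0 to 1 for IgG control against input. The 358 and 184 came without anti-FLAG IP replicate 3. These fits have fewer libraries, and the cause of the larger counts was not tested. Log2 fold changes that changed sign among these fits ranged from -0.17 to 0.095 for eRF3 and -1.17 to 2.05 for eEF1alpha2 against IgG control. For IgG control against input they ranged from -0.096 to 0.22 for eEF1delta, -0.0053 to 0.094 for eEF1gamma and -0.26 to 0.0025 for pix.

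With the replicate block, where same-numbered libraries are paired, all genes called were 241 against input (166 higher, 75 lower) and 8 for IgG control against input, against 158 and 0 without it. It changed no call of a member. The imprecise value of eEF1alpha2 against IgG control turned to 1.06 and was not called. For IgG control against input, DESeq2 called 25 genes, the fit without a filter 1 and the fit of all 9 libraries 1. Some alternatives were chosen after seeing the data: without both libraries numbered 3, 308 genes were called against input, the members called remained eEF1beta and eEF1gamma there, eEF2 was called in addition against IgG control, and eEF1delta was -0.043 for IgG control against input. Leaving out the 6-digit feature took eEF2 against IgG control just past the threshold (edgeR adjusted p = 0.0493). The share of the members without ribosomal protein genes in the total was 1.14% in input and 1.87% in anti-FLAG IP. With ribosomal protein genes in the total, the share ranged from 0.988% to 1.06%, 0.781% to 0.859% and 0.95% to 1.25% in input, IgG control and anti-FLAG IP when single libraries were left out. Depth limits only eEF1alpha2, whose counts lie near the floor of 3.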

Other observations

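The genes whose profile over the 9 libraries was nearest to that of eRF1 were sought among the 6845 genes that averaged 50 counts or more. Likeness was the root mean square difference of log2 CPM (with 0.5 added) after each gene was centred on its own mean. The nearest was eIF2alpha, a subunit of the initiation factor that carries the initiator tRNA, at 0.15, followed by CG4806 at 0.20, Exo70 at 0.21, mRpL41 at 0.21 and mRpL18 at 0.21. The median distance over all these genes was 0.61. eIF2alpha had log2 fold changes of 0.48 against input, 1.06 against IgG control and -0.58 for IgG control against input, beside 0.45, 0.89 and -0.45 for eRF1. The distances are a description, and same-numbered libraries share part of their deviation.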
